A study of Mus musculus with 8 samples.

Results

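The SPARC family of secreted matrix proteins was examined in hearts of mouse embryos with reduced Isl1, in the tissue of the right ventricle (RV) and outflow tract (OFT). The family was represented by 8 genes, taken by symbol from a table of 20701 gene symbols: Sparc, Sparcl1, Fstl1, Smoc1, Smoc2, Spock1, Spock2 and Spock3. They were listed as 16 of the 31507 RefSeq transcripts, and for each gene the transcript with the highest mean count was used. The family was chosen by the measured CTRL against Isl1_hypo difference of Spock3 in these same libraries, so that difference is given as a description, and tests are given for its relatives.

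RNA was sequenced from single embryos at stage E10.5 on a C57BL/6 background. The 4 CTRL embryos had the wild-type genotype. The 4 Isl1_hypo embryos were homozygous for a hypomorphic Isl1 allele (Isl1-f;neo/f;neo) that lowers, but does not abolish, expression of this LIM-homeodomain transcription factor of cardiac progenitors. The allele acts in the whole embryo rather than in the heart alone, each library is 1 embryo, and the labels do not give litters. Isl1 stood at 29.6, 61.5, 46.2 and 51.3 depth-scaled counts (CPM) in CTRL embryos 1 to 4, and at 12.7, 6.86, 7.71 and 11.4 CPM in Isl1_hypo embryos 1 to 4. The groups did not overlap, and Isl1 fell to 20.5% of the CTRL mean (log2 fold change −2.29, SE 0.26, adjusted p = 0.0077 by the quasi-likelihood test of edgeR).

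SPARC family proteins are matricellular: they are secreted into the extracellular matrix and modulate the contact of cells with it more than they build it. Members share a follistatin-like domain, and most carry a calcium-binding domain that in SPARC contacts fibrillar collagens. The branches differ in their additions. The testicans (Spock genes) are proteoglycans with a thyroglobulin-like domain, the SMOC proteins have thyroglobulin-like domains and modulate growth factor signaling, and Fstl1 is a divergent secreted glycoprotein. In the embryonic heart such proteins are found in the cushions, the valves and the tissue around vessels.

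The libraries differed in ways other than Isl1. CTRL libraries held 29748455 to 46678970 counts and Isl1_hypo libraries 18422250 to 33050295, and the log2 difference in depth (−0.56) did not pass an exact 2-sided permutation test (p = 0.0571, smallest possible 0.0286). Isl1_hypo 1 stood apart, with 282 counts of the epithelial cadherin Cdh1 against at most 9 in any other library and 708 counts of the tight junction gene Cldn6 against at most 8. Summed erythroid markers ranged from 2032 to 11925 CPM in CTRL and from 11914 to 25671 CPM in Isl1_hypo, and summed epicardial markers from 45.7 to 265 and from 332 to 545 CPM. The defining cardiomyocyte markers were present in every library, with a summed level of 14485 to 16916 CPM in CTRL and 13256 to 15050 CPM in Isl1_hypo. Y-linked transcripts were expressed in 1 CTRL and 3 Isl1_hypo embryos. In dissected tissue, fewer cells of a type and less RNA per cell cannot be told apart.

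The members spanned a wide range of levels, compared here as the deposited RPKM values, which are scaled for both depth and transcript length. Sparc was the highest, at 397 ± 26.5 RPKM in CTRL and 349 ± 72.1 in Isl1_hypo (SD, n = 4). It was followed by Fstl1, at 159 ± 42.8 and 145 ± 4.72 RPKM. Together these genes held 97.2% to 98.8% of the RPKM summed over the family in each library. Sparcl1 came next, at 5.91 ± 1.5 RPKM in CTRL and 5.15 ± 1.51 in Isl1_hypo. Spock3 was at 3.10 ± 0.519 and 1.01 ± 0.427 RPKM, Smoc2 at 0.535 ± 0.253 and 2.21 ± 3.26, and Smoc1 at 0.220 ± 0.0394 and 0.234 ± 0.143. Spock2 and Spock1 lay lowest, with means over the 8 libraries of 0.0636 and 0.0233 RPKM. Among all tested genes, the mean RPKM of Sparc was at percentile 99.3, that of Spock3 at percentile 33.0 and that of Smoc1 at percentile 8.06.

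**Figure D1:**
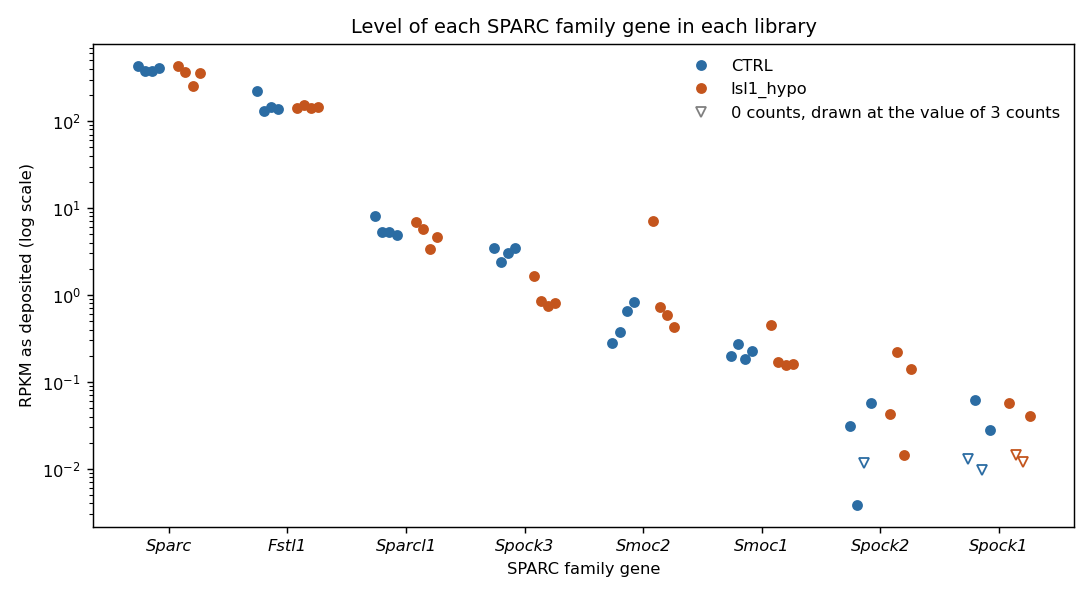
RPKM of the 8 SPARC family genes in each library on a log axis, with CTRL in blue and Isl1_hypo in orange, and with libraries at 0 counts of the kept transcript drawn as open triangles at the value of 3 counts. Sparc and Fstl1 lie far above the rest, the Spock3 points of Isl1_hypo lie below all those of CTRL, and 1 Smoc2 point of Isl1_hypo (7.09 RPKM) stands above the others.

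The order of neighbors was tested within libraries on log2(RPKM + 0.1) with an exact 2-sided sign-flip permutation test over the 8 libraries, adjusted over the 7 neighbor pairs. Sparc was 2.45-fold above Fstl1, Fstl1 27.5-fold above Sparcl1, Sparcl1 2.98-fold above Spock3 and Smoc2 2.69-fold above Smoc1, each in 8 of 8 libraries (adjusted p = 0.0137 for each pair, permutation test). Smoc1 was above Spock2 in 7 of 8 libraries (2.10-fold, adjusted p = 0.0328, permutation test). Spock3 and Smoc2 could not be separated beyond the spread between libraries (Spock3 2.15-fold higher, in 7 of 8 libraries, adjusted p = 0.0911, permutation test), nor could Spock2 and Spock1 (adjusted p = 0.25, permutation test). Without Isl1_hypo 1 the first of these pairs did separate (Spock3 2.94-fold higher, adjusted p = 0.0219, permutation test), while Smoc1 and Spock2 no longer did (adjusted p = 0.0547, permutation test). By group, Spock3 was 5.31-fold above Smoc2 in CTRL (4 of 4 libraries) and stood at 0.874 of it in Isl1_hypo (higher in 3 of 4). Sparcl1 was 1.86-fold above Spock3 in CTRL and 4.78-fold in Isl1_hypo, while Smoc2 was 1.88-fold above Smoc1 in CTRL and 3.86-fold in Isl1_hypo, so the pooled folds of these pairs describe neither group. The folds are on the scale with the pseudocount and understate the differences of the low genes.

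The testicans were expressed mostly as Spock3. Spock3 encodes testican-3, a proteoglycan known to restrain activation of matrix metalloproteinases by their membrane-bound members. It lies on the plus strand of chromosome 8 (mm9, 65429806 to 65835900). The 561, 510, 641 and 852 counts of Spock3 in CTRL embryos 1 to 4 corresponded to 17.9, 12.5, 15.9 and 18.2 CPM. The 159, 119, 128 and 124 counts in Isl1_hypo embryos 1 to 4 corresponded to 8.64, 4.46, 4.05 and 4.29 CPM. Every Isl1_hypo embryo was below every CTRL embryo, and Isl1_hypo 1 was the highest of its group.

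The mean of Spock3 went from 16.2 ± 2.61 CPM in CTRL to 5.36 ± 2.19 CPM in Isl1_hypo (SD, n = 4), or 33.2% of the CTRL mean. The log2 difference was −1.60 with a standard error of 0.26 and a 95% interval of −2.18 to −1.03. The interval is not corrected for the choice of the family by this same difference and is no test. Among the 13769 genes tested, 1.58% had a log2 difference of larger size. Without Isl1_hypo 1, the library with epithelial transcripts, the difference of Spock3 was −1.92. Marker lists of several cell types had medians below 0 beside it, and edgeR called 0 of their genes lower, against 0.269% of all genes called in either direction. Neural markers summed to 65.0 to 88.1 CPM in CTRL and 42.5 to 62.9 CPM in Isl1_hypo, with a negative difference in 3 of 4 tested genes. Neural crest markers summed to 22.9 to 38.9 and 8.31 to 27.7 CPM (1 of 2 negative), macrophage markers to 6.94 to 16.2 and 1.83 to 11.4 CPM (3 of 3) and endothelial markers to 610 to 706 and 498 to 654 CPM (4 of 6). Mesenchyme markers summed to 320 to 511 and 283 to 338 CPM (6 of 6). Smooth muscle markers, at 5269 to 7809 and 5250 to 7624 CPM (6 of 6), had nearly the same range in both groups. Most of that sum was the actin gene Acta2, with means of 5446 and 5442 CPM, so it says little about the other genes of the list. The median log2 differences in that order were −0.35, −0.33, −0.86, −0.19, −0.37 and −0.46, against 0.0056 over all genes. Genes with a negative difference and an unadjusted p under 0.05 numbered 1, 1, 0, 2, 2 and 2 in the same order, where the share over all genes was 6.17%. Cardiomyocyte markers, with sums given above, had a median of −0.18, a negative difference in 4 of 7 genes and 2 of these at an unadjusted p under 0.05, and 1 gene called higher, Nppa, which encodes a natriuretic peptide (log2 1.13, adjusted p = 0.0303, edgeR). Other lists had medians above 0: erythroid 1.69, epicardial 1.07, epithelial 0.92 and yolk sac endoderm 0.33. In the higher direction, unadjusted p was under 0.05 for 11 of 12, 4 of 4, 3 of 3 and 0 of 2 tested genes, against 5.69% of all genes. Of these, edgeR called 1 higher, the erythroid Epb42 (log2 2.28, adjusted p = 0.0172, edgeR). No gene of these marker lists was at 0 in every library, and the part of the lists in the Spock3 difference was not tested. A fit without the globin genes gave a difference of −1.61. It drops only those rows, so it cannot show what part red cells had in the difference, which was not tested. The 3 listed Spock3 transcripts share nearly all their reads, the lowest having 97.6% of the mean count of the highest, so their isoforms could not be told apart.

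The start of Spock3 is shown because Spock3 had the lowest log2 difference of the 6 members tested, with that of Sparc, the most abundant member, for comparison. The RefSeq windows of GRCm38.p6 span 250 bases before and 50 after an annotated start and were found for 5 of the 8 genes. The core TAAT, which homeodomain factors commonly contact, is in capitals where it occurs on either strand.
Spock3 (chr8:62950982-62951281, plus strand): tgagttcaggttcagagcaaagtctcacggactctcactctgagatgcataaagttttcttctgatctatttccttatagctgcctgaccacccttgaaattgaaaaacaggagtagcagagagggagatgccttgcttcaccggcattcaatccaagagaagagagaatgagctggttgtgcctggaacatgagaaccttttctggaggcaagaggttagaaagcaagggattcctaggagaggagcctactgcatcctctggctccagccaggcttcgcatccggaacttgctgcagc
Sparc (chr11:55420031-55420330, minus strand): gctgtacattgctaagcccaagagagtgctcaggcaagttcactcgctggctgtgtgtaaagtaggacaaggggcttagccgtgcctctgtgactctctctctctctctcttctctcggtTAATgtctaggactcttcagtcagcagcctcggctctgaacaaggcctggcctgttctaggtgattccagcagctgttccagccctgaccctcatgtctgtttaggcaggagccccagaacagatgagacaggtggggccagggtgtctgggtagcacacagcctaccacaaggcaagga
The Spock3 window had a GC content of 49% with 4 CpG dinucleotides and held no TAAT, nor did the window of a second Spock3 start that overlaps it. The Sparc window, at 55.3% GC with 4 CpG dinucleotides, held TAAT once, starting at position 121 counted from its 5′ end. Of all 32851 windows, 58% held TAAT and the median GC content was 52.7%. These letters were searched in the window alone and say nothing about binding of Isl1.

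The other testicans were close to the limit of detection. Spock1, or testican-1, is encoded on chromosome 13, minus strand (mm9, 57524451 to 58008948), the chromosome of Isl1 but 59079530 bases from it. The Spock1 transcript kept had 0, 19, 0 and 10 counts in CTRL embryos 1 to 4 and 8, 0, 0 and 9 in Isl1_hypo embryos 1 to 4. Both shorter Spock1 transcripts had 1, 3, 0 and 5 counts in CTRL and 2, 8, 1 and 0 in Isl1_hypo. At least 1 of the 5 Spock1 transcripts thus had a count in every library but CTRL 3, where a count of 0 allows up to 3 counts, or 0.00966 RPKM of the kept transcript. In CTRL 1 and Isl1_hypo 3 no Spock1 transcript had more than 1 count, which is below that floor of 3 counts. Spock2, or testican-2, lies on the plus strand of chromosome 10 (mm9, 59568967 to 59597946). Its counts were 6, 1, 0 and 17 in CTRL and 5, 38, 3 and 26 in Isl1_hypo. The groups overlapped for both genes, which were removed by the filter on low counts. In a fit without the filter, the difference of Spock2 (log2 2.18, SE 1.23) had an adjusted p of 0.538 and that of Spock1 (log2 0.08, SE 1.63) one of 0.99 by edgeR. No difference was detected, and standard errors this wide do not exclude one. Spock3 made up 79.3% to 100% of the RPKM summed over the kept testican transcripts in each library.

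The remaining family was tested in the fit over all genes, where 37 of 13769 genes (0.269%) passed an adjusted p of 0.05. Of the 5 tested relatives of Spock3, 0 passed by edgeR, and 0 had groups that did not overlap, against 8.5% of all genes. At an unadjusted p under 0.05 there was 1 relative, Smoc2, against 11.9% of all genes. By sign, 2 were higher and 3 lower, with a median log2 difference of −0.11, against 0.0056 over all genes. DESeq2 and limma-voom with sample weights also called 0 of them, but DESeq2 gave no p-value for Smoc2. Spock3 is counted among the 37, by the difference for which it was chosen, and nothing is read from that count. It was not among the calls in 7 of 19 alternatives, namely without CTRL 1, 2, 3 or 4, without Isl1_hypo 2 or 4 and with the replicate number as a block.

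**Figure D2:**
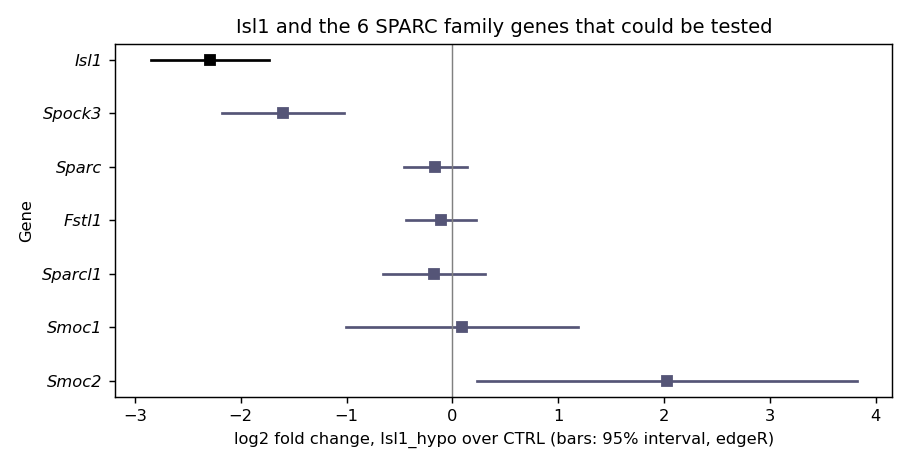
Log2 fold change of Isl1 and of the 6 SPARC family genes that passed the filter, Isl1_hypo over CTRL, with 95% intervals from edgeR as bars. Sparc, Fstl1, Sparcl1 and Smoc1 have intervals that include 0, Spock3 is at −1.60 and Smoc2 at 2.03 with an interval from 0.23 to 3.82. The bar of Spock3 is not corrected for the choice of the family by its difference.

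Sparc and Sparcl1 form the core of the family. Sparc, also called osteonectin, binds collagens and is encoded on chromosome 11, minus strand (mm9, 55208002 to 55233582). It was at 1811, 1633, 1617 and 1744 CPM in CTRL embryos 1 to 4, and at 1826, 1588, 1123 and 1544 CPM in Isl1_hypo embryos 1 to 4. The Isl1_hypo group held both the highest and the lowest library of all 8. The means were 1701 ± 92.4 and 1520 ± 292 CPM (SD, n = 4), a log2 difference of −0.16 (95% interval −0.46 to 0.14, adjusted p = 0.666, edgeR). A fall of more than 0.46 on the log2 scale thus lay outside the interval. Without Isl1_hypo 3, the lowest library, the difference was −0.04.

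Sparcl1, or hevin, is an anti-adhesive relative of Sparc known from vessels and brain. Its locus is on chromosome 5, minus strand (mm9, 104508130 to 104543107). It was at 40.4, 26.8, 27.5 and 24.7 CPM in CTRL embryos 1 to 4 and at 35.0, 29.1, 17.7 and 24.0 CPM in Isl1_hypo embryos 1 to 4, with CTRL 1 the highest and the groups overlapping. The means of 29.8 ± 7.12 and 26.4 ± 7.38 CPM differed by −0.18 on the log2 scale (95% interval −0.66 to 0.30, adjusted p = 0.782, edgeR). Sparcl1 shares 201 exon bases with the noncoding gene Gm16990 on the opposite strand, and reads were counted without regard to strand, so reads of the shared bases cannot be assigned to one of them.

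Fstl1, a secreted glycoprotein that modulates BMP signaling, is on the plus strand of chromosome 16 (mm9, 37776959 to 37836600). It was at 1283, 769, 865 and 813 CPM in CTRL embryos 1 to 4 and at 827, 900, 874 and 862 CPM in Isl1_hypo embryos 1 to 4. CTRL 1 was far above the other 7 libraries, which lay between 769 and 900 CPM. The means of 932 ± 237 and 866 ± 30.1 CPM (SD, n = 4) differed by −0.11 on the log2 scale (95% interval −0.44 to 0.22, adjusted p = 0.813, edgeR). Without CTRL 1 the sign turned, to 0.08 (adjusted p = 0.788). CTRL 1 also had the highest summed mesenchyme markers, 511 CPM against 283 to 388 in the other libraries, and the lowest summed epicardial markers, and their part in its Fstl1 level was not tested.

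The SMOC genes were low, and both were highest in the Isl1_hypo embryo with epithelial transcripts. Smoc1, an antagonist of BMP signaling, is on the plus strand of chromosome 12 (mm9, 82127795 to 82287401). Its CPM values were 1.12, 1.55, 1.04 and 1.28 in CTRL embryos 1 to 4 and 2.55, 0.974, 0.917 and 0.934 in Isl1_hypo embryos 1 to 4. Isl1_hypo 1 lay above all CTRL embryos and the other 3 below them. The means, 1.25 ± 0.224 and 1.34 ± 0.806 CPM, differed by 0.09 on the log2 scale (95% interval −1.0 to 1.19, adjusted p = 0.958, edgeR), and without Isl1_hypo 1 by −0.41 (adjusted p = 0.748). The counts behind these values were 26 to 63 per library.

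Smoc2, a calcium-binding matrix protein that modulates the response of cells to growth factors, is on the plus strand of chromosome 17 (mm9, 14416513 to 14541797). In CTRL embryos 1 to 4 it was at 1.25, 1.75, 3.05 and 3.83 CPM. In Isl1_hypo embryos 1 to 4 it was at 32.7, 3.37, 2.84 and 2.01 CPM, so that 602 counts came from the first embryo against 58 to 90 from the others of the group. Outside that library all values lay between 1.25 and 3.83 CPM and the groups overlapped. The log2 difference was 2.03 (SE 0.82, 95% interval 0.23 to 3.82, unadjusted p = 0.0301, adjusted p = 0.352, edgeR) and fell to 0.15 (adjusted p = 0.915) without Isl1_hypo 1. The epithelial genes Cdh1, Cldn6, Esrp1 and Epcam were at 15.3, 38.5, 6.03 and 9.83 CPM in Isl1_hypo 1 and at most at 0.311, 0.199, 0.253 and 1.87 CPM elsewhere. As 6 epithelial markers, Krt8 and Krt19 included, they summed to 51.9 to 103 CPM in CTRL and 101 to 242 CPM in Isl1_hypo. Their part in the SMOC values was not tested.

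**Figure D3:**
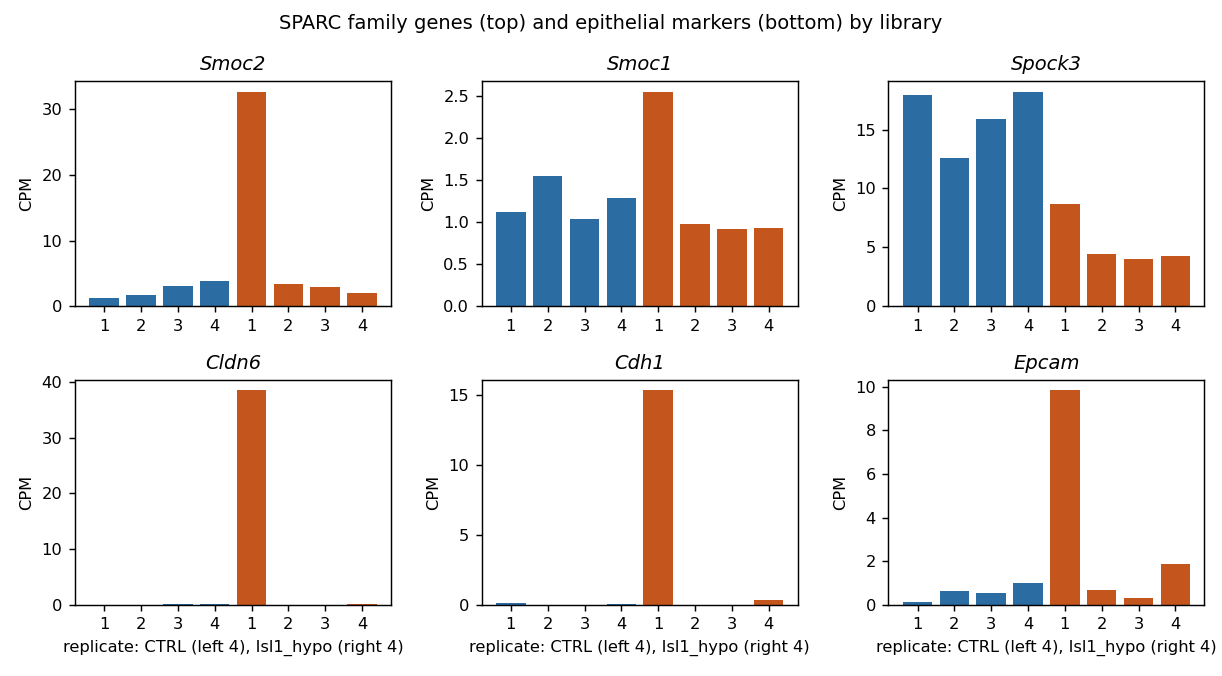
CPM in each library (CTRL in blue, Isl1_hypo in orange) of Smoc2, Smoc1 and Spock3 in the upper row and of the epithelial genes Cldn6, Cdh1 and Epcam in the lower row, with a separate axis from 0 for each gene. Isl1_hypo 1 is the highest library for Smoc2 (32.7 CPM), Smoc1 (2.55 CPM) and the 3 epithelial genes, and the highest of its group for Spock3 (8.64 CPM).

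Each library was left out in turn. The difference of Spock3 stayed between −1.92 and −1.49 and that of Sparc between −0.26 and −0.04. That of Smoc2 lay between 1.81 and 2.37 except without Isl1_hypo 1. Smoc1 turned sign without Isl1_hypo 1 and Fstl1 without CTRL 1.

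**Figure D4:**
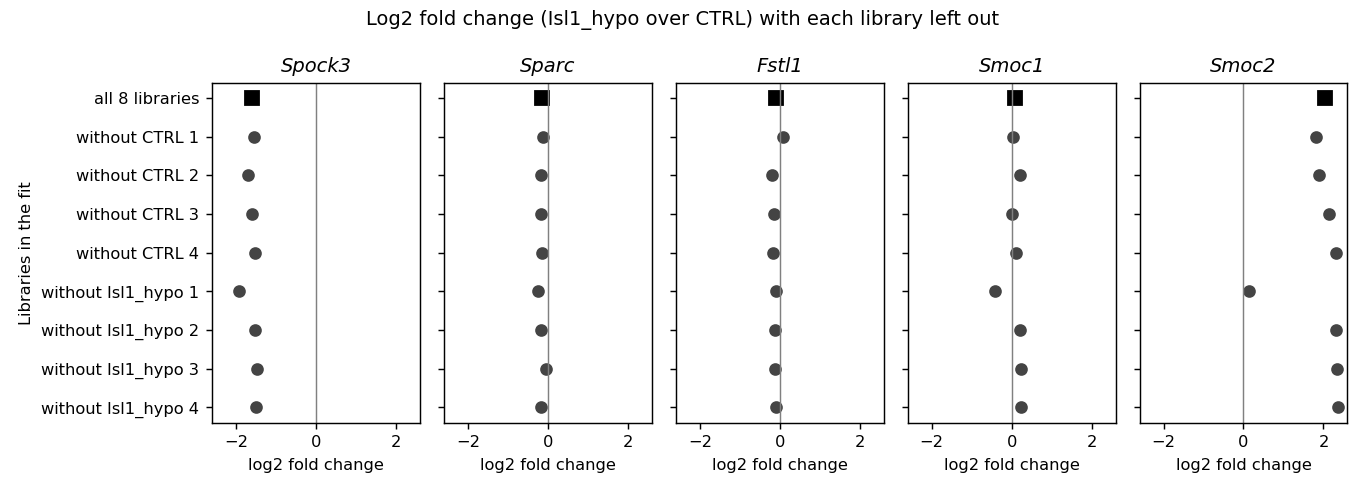
Log2 fold change (Isl1_hypo over CTRL) of 5 SPARC family genes with all 8 libraries (square) and with each library left out in turn (circles). Spock3 stays below −1.49 in every fit, while Smoc2 drops to 0.15 and Smoc1 to −0.41 when Isl1_hypo 1 is left out.

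Genes with a pattern like that of Spock3 were ranked by Pearson correlation of log2 CPM over the 8 libraries, among 10743 genes with a mean of at least 5 CPM. The libraries are shared by all genes, and the ranking favors genes that differ between the groups, so it is a description. The 5 genes most like Spock3 were Tmem26, a transmembrane protein (r = 0.980), Zfyve27, or protrudin, of the endoplasmic reticulum and membrane traffic (0.970), Tgfbi, a secreted adhesion protein of the matrix (0.956), Rrbp1, a ribosome-binding protein of the rough endoplasmic reticulum (0.955), and Fkbp1b, which binds ryanodine receptors (0.950). With the group means removed, r was 0.867, 0.8, 0.765, 0.647 and 0.763 in the same order. All 5 were lower in every Isl1_hypo than in every CTRL embryo, as were 612 of all 13769 genes tested. The ranking favors this pattern, so nothing is read from it. Their log2 differences, −0.82 for Tmem26, −0.60 for Zfyve27, −1.06 for Tgfbi, −0.74 for Rrbp1 and −0.55 for Fkbp1b, were smaller in size than that of Spock3. Within the family, the correlation with Spock3 was 0.65 for Sparc, 0.50 for Sparcl1, 0.32 for Smoc1, 0.22 for Fstl1 and −0.10 for Smoc2.

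**Figure D5:**
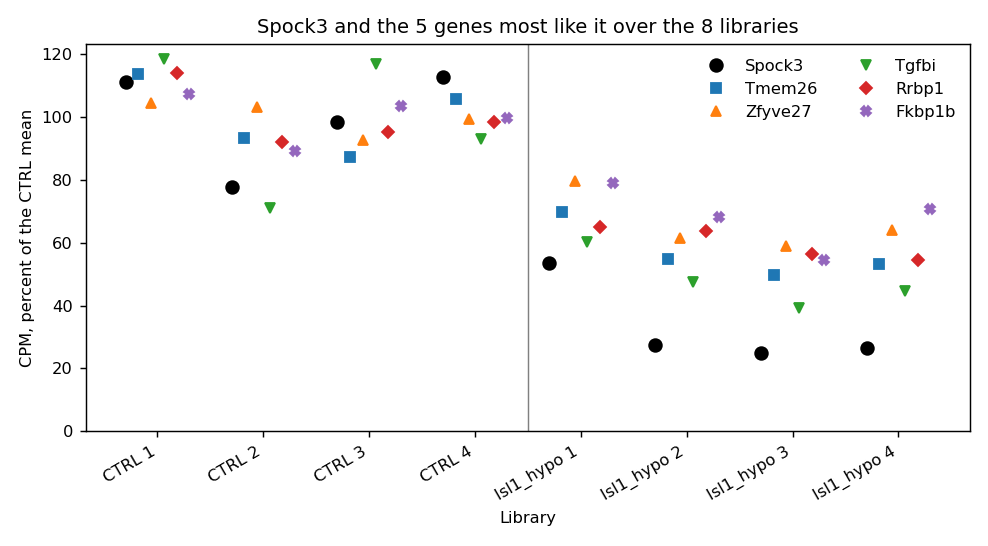
CPM of Spock3 and of the 5 genes most like it, as percent of each gene's CTRL mean, in each library, with a vertical line between the groups. All 6 genes are lower in each Isl1_hypo embryo than in each CTRL embryo, a pattern that the ranking favors, and Isl1_hypo 1 is the highest of its group for each of them.

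The matrix around the family was examined next, by lists of its functional neighbors. Other matricellular genes came first, of which 12 of 18 could be tested. By edgeR 0 were called higher and 1 was called lower, where 0.269% of all genes were called. The gene called was Tgfbi, which went from 373 ± 83.8 to 179 ± 33.1 CPM (SD, n = 4, log2 −1.06, adjusted p = 0.0359, edgeR). By unadjusted p under 0.05, 1 of the 12 was higher and 5 were lower, where 5.69% of all genes tested were higher and 6.17% lower. The median log2 difference of the list was −0.55, against 0.0056 over all genes. The tenascin gene Tnc was at 267 ± 75.8 and 145 ± 32.5 CPM (adjusted p = 0.137, edgeR) and the growth factor modulator Ctgf at 145 ± 27.2 and 86.8 ± 27.9 CPM (adjusted p = 0.205, edgeR). The call of Tgfbi was lost in 7 of 19 alternatives, among them without CTRL 1, 3 or 4 or Isl1_hypo 2 or 4, with adjusted p up to 0.130 by edgeR.

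Of 7 relatives by the follistatin domain, 6 were tested and 0 were called by edgeR, where 0.269% of all genes were called. By unadjusted p, 0 were higher and 2 lower, against 5.69% and 6.17% of all genes, and the median was −0.28, against 0.0056. The 2 lower genes were Fstl3, which binds and blocks activins (29.7 ± 3.35 and 16.1 ± 4.79 CPM, adjusted p = 0.134), and the heparan sulfate proteoglycan Agrn (117 ± 27.1 and 71.7 ± 24.4 CPM, adjusted p = 0.304). In a list of matrix metalloproteinases, their Timp inhibitors and the cathepsin gene Ctsl, 11 of 13 were tested and 0 called by edgeR, against 0.269% of all genes. By unadjusted p, 0 were higher and 3 lower, against 5.69% and 6.17% of all genes, and the median was −0.08, against 0.0056. The membrane-bound metalloproteinase Mmp14 was at 109 ± 21.0 and 72.5 ± 20 CPM (adjusted p = 0.287), the secreted Mmp2 at 166 ± 20.5 and 120 ± 38.0 CPM (adjusted p = 0.382) and their inhibitor Timp3 at 135 ± 12.5 and 106 ± 18.5 CPM (adjusted p = 0.330).

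The 7 collagen genes, ligands of Sparc, were all tested and 0 were called by edgeR, against 0.269% of all genes. By unadjusted p, 0 were higher and 2 lower, against 5.69% and 6.17% of all genes, and the median was −0.47, against 0.0056. The basement membrane collagen Col4a1 was at 357 ± 98.7 and 205 ± 61.1 CPM (adjusted p = 0.221) and the fibrillar Col5a1 at 315 ± 26.7 and 207 ± 82.1 CPM (adjusted p = 0.381). The testicans are proteoglycans by structure. Of 12 genes for secreted or cell-surface proteoglycans and a link protein, all tested, 0 were called by edgeR, against 0.269% of all genes. By unadjusted p, 3 were higher and 4 lower, against 5.69% and 6.17% of all genes, and the median was −0.13, against 0.0056. The small proteoglycan Dcn was at 23.0 ± 13.6 and 85.6 ± 26.4 CPM (adjusted p = 0.0727), the basement membrane proteoglycan Hspg2 at 293 ± 41.4 and 170 ± 65.7 CPM (adjusted p = 0.289) and the glypican Gpc6 at 30.1 ± 2.41 and 21.3 ± 3.67 CPM (adjusted p = 0.228). Across these 5 lists, Tgfbi was the only gene past the adjusted threshold in the fit with all libraries. The part in these values of the marker lists given with Spock3, with medians below or above 0, was not tested.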

How the data were processed

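RNA-seq of 8 OFT/RV libraries was analyzed. The authors aligned reads to mm9 with STAR and made the deposited counts of exon reads per RefSeq transcript with HOMER, ignoring strand, so transcripts of a gene and overlapping genes share reads. From those counts and the listed transcript length the authors derived the deposited RPKM with edgeR. The authors' own comparison (DESeq2 mean, log2 fold change, its standard error, statistic and p-values) was not used.

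Per symbol, 1 transcript was kept, that of the highest mean count, ties going to the longest. Genes were filtered with filterByExpr, scaled by TMM and tested by the quasi-likelihood method (edgeR 4.0.16, R 4.3.3) without covariates, with Benjamini-Hochberg adjustment over all 13769 genes tested and calls at 0.05. The standard error was the log2 fold change divided by the square root of the F statistic. CPM used TMM-scaled library sizes, and log2 CPM a prior count of 2. Floors are 3 counts and cover counting error only. DESeq2 1.42.0 and limma 3.58.1 (voom with sample quality weights) served as alternatives, and the fits were tested on simulated data. Coordinates are from GENCODE for mm9.

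The labels gave the groups. The family, the lists and the rule for naming genes were chosen with earlier results of these data known. By that rule the text names Isl1, the 8 members, the 5 genes most like Spock3, and from each list the genes with an adjusted p under 0.05 or at most the 3 with the smallest unadjusted p. The Sparc and Spock3 starts shown were chosen after their values were seen. The authors extracted RNA from single embryos and the labels do not give litters, so p-values between the groups measure the spread between these embryos.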

Additional observations from a re-analysis of the deposited data

Results flagged for a closer look

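In 14 groups of 4 libraries (Isl1 and the 6 tested family genes in CTRL and Isl1_hypo), 2 held a library whose log2 CPM lay far from the other 3 by Dixon's criterion, which chance alone meets in about 1 of 20 groups (0.7 of 14). Both were in Isl1_hypo 1. Spock3 was at a log2 CPM of 3.12 there, against 2.04 to 2.18 in the other Isl1_hypo libraries, and still below every CTRL embryo. Smoc1 was at 1.39, against −0.03 to 0.05. Isl1_hypo 1 also had the fewest counts, 18422250, and the epithelial transcripts given with the SMOC genes, whose part in either value was not tested.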

How the results depend on the processing

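The count of 0 called relatives of Spock3 was the same in all 19 alternatives, and the order of family levels kept 4 to 5 of 7 neighbor pairs past the threshold in all 12, of which Smoc1 over Spock2 did not pass without any 1 CTRL library or without Isl1_hypo 1 or 3 (adjusted p = 0.0547 to 0.0656, exact permutation test). The count over all genes moved from 37 to 319 with DESeq2, 130 with quality-weighted limma-voom (a change of test and weighting together) and 4 to 48 with 1 library left out, being 4 to 12 without CTRL 1, 2 or 3 or Isl1_hypo 2 or 4. With the replicate number as a block, edgeR called 0 genes, with 1582 at an unadjusted p under 0.05. The numbers did not pair the embryos: same-numbered libraries deviated with correlations of −0.021 to 0.022, and 1 of 4 CTRL libraries matched its own number best. Under the block Isl1 (adjusted p = 0.0722) and Tgfbi (0.091) were above 0.05. The log2 difference of Spock3, a description, lay between −1.92 and −1.49 over all 19 alternatives. Signs turned for Sparcl1 with weighted limma-voom (0.027), for Smoc1 under the block (−0.041), without Isl1_hypo 1 and 3 (−0.39, chosen after seeing the data) and over single libraries left out (−0.41 to 0.24), and for Fstl1 over the latter (−0.19 to 0.081). Smoc2 stood at 1.12 with weighted limma-voom, 0.93 under the block and 0.12 without Isl1_hypo 1 and 3, and DESeq2 gave it no p-value. The depth difference stayed between −0.69 and −0.39. The cause of these shifts was not tested. The values of Spock1, Spock2 and Smoc1 rest on low counts.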
